A study of Mus musculus with 4 samples.

Results

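The 43 genes described here drive or mark the cell division cycle, and they were taken by symbol from the 55414 genes of each deposited matrix; all 43 were found, and each had UMIs (unique molecular identifiers, 1 per captured transcript) in all 4 libraries. By role, 18 act in S phase or at its start, 23 act in G2 and mitosis, and Hmgb2 and Stmn1 were placed in neither group. Droplet single-cell RNA libraries were made from liver cells of A/A and S/S mice aged 2 months, either untreated (baseline) or collected 3 h after 500 ng of the cytokine TNF was given intraperitoneally, to ask how genotype and TNF act on liver transcription. The labels do not say what A and S stand for. Cells of 2 mice were pooled for each group; low-speed spins had enriched non-parenchymal cells, Ficoll had removed dead cells, and a flow sort enriched macrophages and live cells, so that cell numbers do not give the makeup of the liver. With 1 library per group nothing was tested, and all intervals are exact 95% intervals that cover counting error only. Where a count is 0, the share it is said to allow is 3 counts over the number of barcodes. That bound lies below the upper end of the exact interval. Every list of 4 values below gives the baseline libraries first (A/A, then S/S) and the TNF libraries next (again A/A, then S/S). The matrices of both TNF libraries were made with Cell Ranger 6.1.2 and those of both baseline libraries with 7.1.0, so TNF and software version cannot be told apart.

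A dividing cell first loads the MCM helicase on DNA (Mcm2 to Mcm7, with the loaders Cdc6 and Cdt1), then copies its DNA with the sliding clamp Pcna and nucleotides made by Rrm1, Rrm2, Tyms, Tk1 and Dut. Cyclin-dependent kinase Cdk1 with cyclins Ccna2, Ccnb1 and Ccnb2 then starts mitosis, in which the aurora kinases, Plk1 and Bub1 control the spindle, kinesins such as Kif11 and Kif23 move it, and Cdc20 and Ube2c direct the destruction of cyclins. Most adult liver cells rest outside the cycle, while lymphocytes, myeloid cells and red cell precursors can divide.

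The promoters of the S phase and mitosis members hold different letters, and 5 of them are shown: Mki67, Top2a and Ube2c because the results below turn on them, and Cdk1 and Mcm6 as a mitosis and an S phase gene with E2F matches. Activators and repressors of the E2F family bind S phase promoters, while the CHR element and the CCAAT box next to it serve mitotic genes. Promoter windows of 300 bases (250 before to 50 after the start, RefSeq, GRCm38.p6) were at hand for 36 of 43 members. A member with several windows, such as Mcm7 or Uhrf1, counted as a match if any of them matched. The share of all windows was taken per window, which is a less generous count. An E2F match (TTTCCCGC, TTTGGCGC, TTTCGCGC or TTTGCCGC, either strand) was present in 7 of 15 S phase genes, 1 of 20 mitosis genes and 2.26% of all 32851 windows. A CHR match (TTTGAA, either strand) was present in 1 of 15, 15 of 20 and 17.9%. A CCAAT match (either strand) was present in 9 of 15, 18 of 20 and 37.4%, and CHR and CCAAT together in 1 of 15, 15 of 20 and 6.95%. Among members, 4 genes had overlapping matches of 1 motif with itself on the other strand, and 2 genes had overlapping matches of different motifs. The 150 bases before each start are printed 5′ to 3′ on the gene's strand, with matches in capitals (ATTGG and TTCAAA are CCAAT and TTTGAA on the other strand):

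Mki67 (chr7:135716380-135716529, minus strand): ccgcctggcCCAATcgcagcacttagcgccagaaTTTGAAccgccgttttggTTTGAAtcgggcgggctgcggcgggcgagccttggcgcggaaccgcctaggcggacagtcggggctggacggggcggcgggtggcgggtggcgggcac
Top2a (chr11:99024190-99024339, minus strand): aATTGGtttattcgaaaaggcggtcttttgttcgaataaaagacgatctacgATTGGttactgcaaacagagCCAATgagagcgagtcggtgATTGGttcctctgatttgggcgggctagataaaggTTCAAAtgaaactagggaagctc
Cdk1 (chr10:69352913-69353062, minus strand): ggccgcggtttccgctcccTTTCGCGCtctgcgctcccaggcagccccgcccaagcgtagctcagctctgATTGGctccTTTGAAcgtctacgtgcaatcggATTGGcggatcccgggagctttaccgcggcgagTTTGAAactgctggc
Ube2c (chr2:164769779-164769928, plus strand): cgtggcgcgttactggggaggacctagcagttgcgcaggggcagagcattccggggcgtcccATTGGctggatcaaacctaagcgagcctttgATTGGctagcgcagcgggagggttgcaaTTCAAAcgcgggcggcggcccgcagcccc
Mcm6 (chr1:128359706-128359855, minus strand): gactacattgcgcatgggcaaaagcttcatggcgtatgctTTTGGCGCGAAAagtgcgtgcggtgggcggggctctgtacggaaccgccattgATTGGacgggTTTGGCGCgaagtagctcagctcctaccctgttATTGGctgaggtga

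Cdk1 carries all 3 motifs, Mcm6 holds E2F matches without CHR, and Mki67, Top2a and Ube2c hold CHR and CCAAT without an E2F match in these stretches. A match describes letters and not a bound site.

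After filtering, the libraries kept 2830, 4366, 6452 and 5528 barcodes with 20514857, 29710749, 53463285 and 53969689 UMIs. Pairs of libraries shared between 2 and 11 barcode sequences. Cell types were called by marker genes and are named "-like"; the median barcode had UMIs of 8 or 9 of 12 T cell markers, 8 to 10 of 14 hepatocyte markers and 7 to 9 of 14 neutrophil markers. Over all kept barcodes, the 18 S phase members summed to 283, 411, 243 and 260 CPM (UMIs per 1000000 UMIs of the library or type), and the 23 mitosis members to 196, 536, 209 and 505 CPM. The mitosis sum was thus higher in both S/S libraries than in either A/A library, by a larger factor than the S phase sum. Barcodes with at least 3 UMIs of Mki67 (the Ki-67 proliferation antigen, ENSMUSG00000031004.9) plus Top2a (topoisomerase II, which untangles chromosomes, ENSMUSG00000020914.18) made up 61 of 2830 (2.16%), 139 of 4366 (3.18%), 179 of 6452 (2.77%) and 303 of 5528 (5.48%). A stricter measure, chosen after these values were seen, asks for UMIs of at least 4 of the 21 other mitosis members in 1 barcode and is called the mitosis panel here. The panel was met by 49 (1.73%), 156 (3.57%), 77 (1.19%) and 165 barcodes (2.98%). Both measures were higher in S/S, but they ranked A/A TNF differently: above A/A baseline by Mki67 and Top2a, below it by the panel. Barcodes with the panel held 69.2, 83.9, 76.0 and 85.7% of the mitosis UMIs but only 18.3, 44.1, 23.05 and 49.7% of the S phase UMIs. Most mitosis UMIs thus sat in a few barcodes, and most S phase UMIs lay outside these. The panel is made of mitosis members, so part of this contrast is fixed by its definition.

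**Figure D1:**
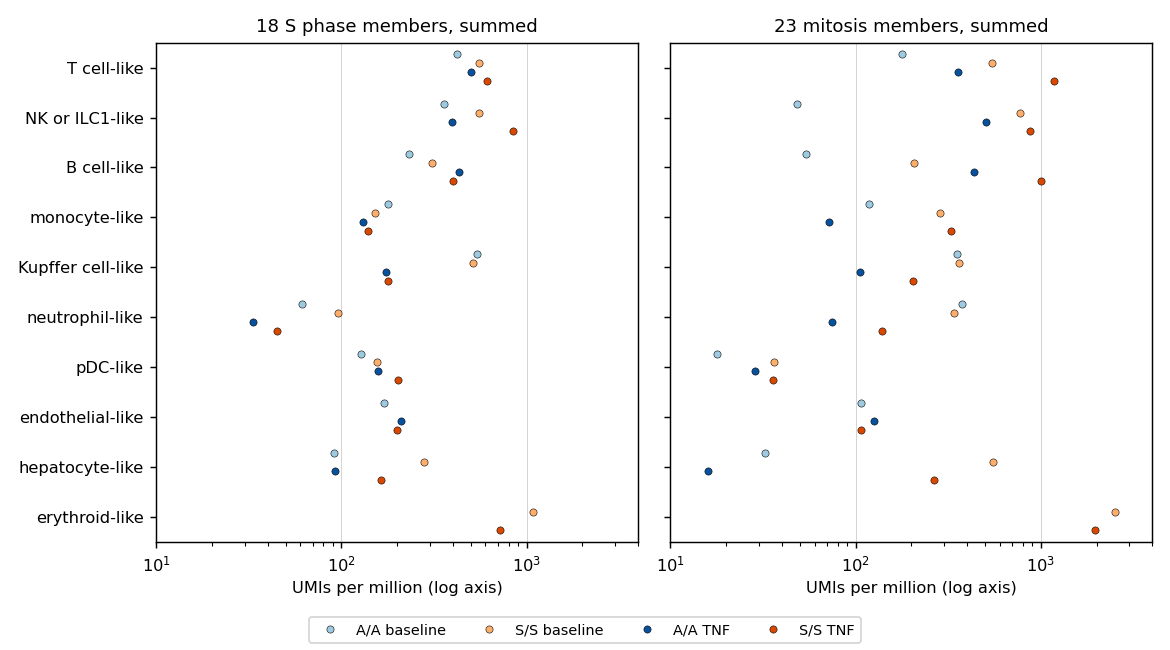
Summed CPM (log axis) of the 18 S phase and the 23 mitosis members in each cell type gate with at least 50 barcodes, 1 point per library. Mitosis members spread over a far wider range than S phase members, from 15.9 CPM in hepatocyte-like barcodes of A/A after TNF to 2518 CPM in erythroid-like barcodes of S/S at baseline.

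In T cell-like barcodes the mitosis members stood higher in S/S at both times, while the S phase members differed little. The mitosis sum was 178, 544, 357 and 1172 CPM, and the S phase sum 421, 551, 503 and 610 CPM. Of 23 mitosis members, 21 were over 2-fold higher in S/S at baseline, against 6.85% of all genes compared there, and 21 after TNF, against 3.4%. The median log2 ratio of the mitosis members was 1.67 at baseline, beside 0.12 over all genes, and 1.51 after TNF, beside -0.01. Of 18 S phase members, 4 and 0 were over 2-fold higher, with medians of 0.32 and 0.37. Members share the barcodes they come from and are not replicates: without the barcodes that had the panel, which is made of 21 of these members, 5 and 3 of all 43 members were over 2-fold higher, in place of 26 and 22. The S phase members' share of S phase plus mitosis UMIs was 70.3% (68.7 to 71.8), 50.3% (49.2 to 51.4), 58.5% (57.5 to 59.6) and 34.2% (32.8 to 35.6), lower in S/S at both times.

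Mki67 in T cell-like barcodes stood at 28.0, 70.0, 59.5 and 172 CPM, and Top2a at 40.9, 80.1, 57.6 and 153 CPM. Both were lowest in A/A at baseline and highest in S/S after TNF. The log2 ratio of S/S to A/A was 1.29 and 1.51 for Mki67 and 0.95 and 1.39 for Top2a. Ube2c, the ubiquitin-conjugating enzyme of the anaphase-promoting complex, had 10.4, 45.1, 17.48 and 128 CPM, and after TNF it had the largest ratio of all members, at 2.80 (2.60 to 3.15). Birc5 (survivin, of the chromosomal passenger complex) had 7.5, 40.0, 22.2 and 101 CPM, and Ccnb2 3.04, 19.1, 11.2 and 41.0 CPM. Cdk1 had 5.89, 21.5, 9.36 and 31.6 CPM, and Mcm6, whose promoter holds E2F matches, 26.4, 39.6, 31.5 and 34.8 CPM. These counts sat in few cells: 17 UMIs of Ccnb2 in A/A at baseline came from 2 barcodes, 1 of which held 88.2% of them. The S phase members with the largest ratios at baseline were Ccne1 (cyclin E1, 1.70), Tyms (1.59), Rrm2 (1.41) and Tk1 (1.40), whereas Pcna had 95.2, 88.4, 101 and 83.6 CPM and Mcm2 24.5, 20.8, 25.6 and 21.5 CPM. Among the nucleotide suppliers, Dut had a ratio of 0.82 and Rrm1 of 0.31.

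Counted per barcode, the picture depended on the measure. At least 3 UMIs of Mki67 plus Top2a were found in 18 of 435 T cell-like barcodes (4.14%, 2.47 to 6.46), 37 of 837 (4.42%, 3.13 to 6.04), 32 of 829 (3.86%, 2.66 to 5.41) and 25 of 244 (10.2%, 6.74 to 14.8). S/S and A/A overlapped at baseline and not after TNF. The panel was met by 8 (1.84%, 0.80 to 3.59), 34 (4.06%, 2.83 to 5.63), 19 (2.29%, 1.39 to 3.56) and 16 (6.56%, 3.79 to 10.4). The ratio of S/S to A/A shares by the panel was 2.21 (1.004 to 5.52) at baseline and 2.86 (1.38 to 5.87) after TNF. Depth differed as well: the median T cell-like barcode had 12478, 7688, 10886 and 8998 UMIs. With each barcode thinned to 2000 UMIs, at least 2 mitosis members were seen in 1.62, 4.67, 2.19 and 6.72%. The T cell-like barcodes were themselves of a different makeup: those with UMIs of Cd8a or Cd8b1 and none of Cd4 made up 19.4, 43.2, 23.5 and 42.1% of the barcodes without the panel. Within these Cd8-only barcodes (panel included) the panel share was 5.68% (1.87 to 12.8), 5.19% (3.15 to 7.99), 2.56% (0.84 to 5.88) and 7.69% (3.38 to 14.6). Within Cd4-only barcodes it was 1.76% (0.37 to 5.07), 2.78% (1.12 to 5.64), 4.15% (2.09 to 7.31) and 3.33% (0.41 to 11.5). Inside either subset the intervals of S/S and A/A overlapped at both times, and the share of Cd8-only barcodes moved with genotype. The part of that share in the difference was not tested. Both subsets leave out barcodes with Cd4 and Cd8 UMIs together. These were 0 of 8, 0 of 34, 0 of 19 and 5 of 16 barcodes with the panel, and 3 of 427, 27 of 803, 19 of 810 and 6 of 228 without it. Barcodes with neither, also left out, numbered 0, 8, 3 and 1 among those with the panel.

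The mitosis sum of T cell-like barcodes was higher after TNF within each genotype, in libraries that also differed in software version. Of 23 mitosis members, 13 were over 2-fold higher after TNF in A/A, against 5.54% of all genes, and 11 in S/S, against 3.49%. S phase members over 2-fold higher numbered 2 and 0 of 18. Nusap1, a spindle-associated protein, led in A/A with a log2 ratio of 1.75 (1.39 to 2.43), and Ube2c in S/S with 1.48 (1.28 to 1.73). The share of barcodes with the panel changed by factors of 1.25 (0.52 to 3.29) and 1.61 (0.83 to 3.01), both intervals including 1. Without the panel barcodes, 0 of 43 members were over 2-fold higher after TNF in either genotype; since the panel consists of members, much of that is fixed by its definition.

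**Figure D2:**
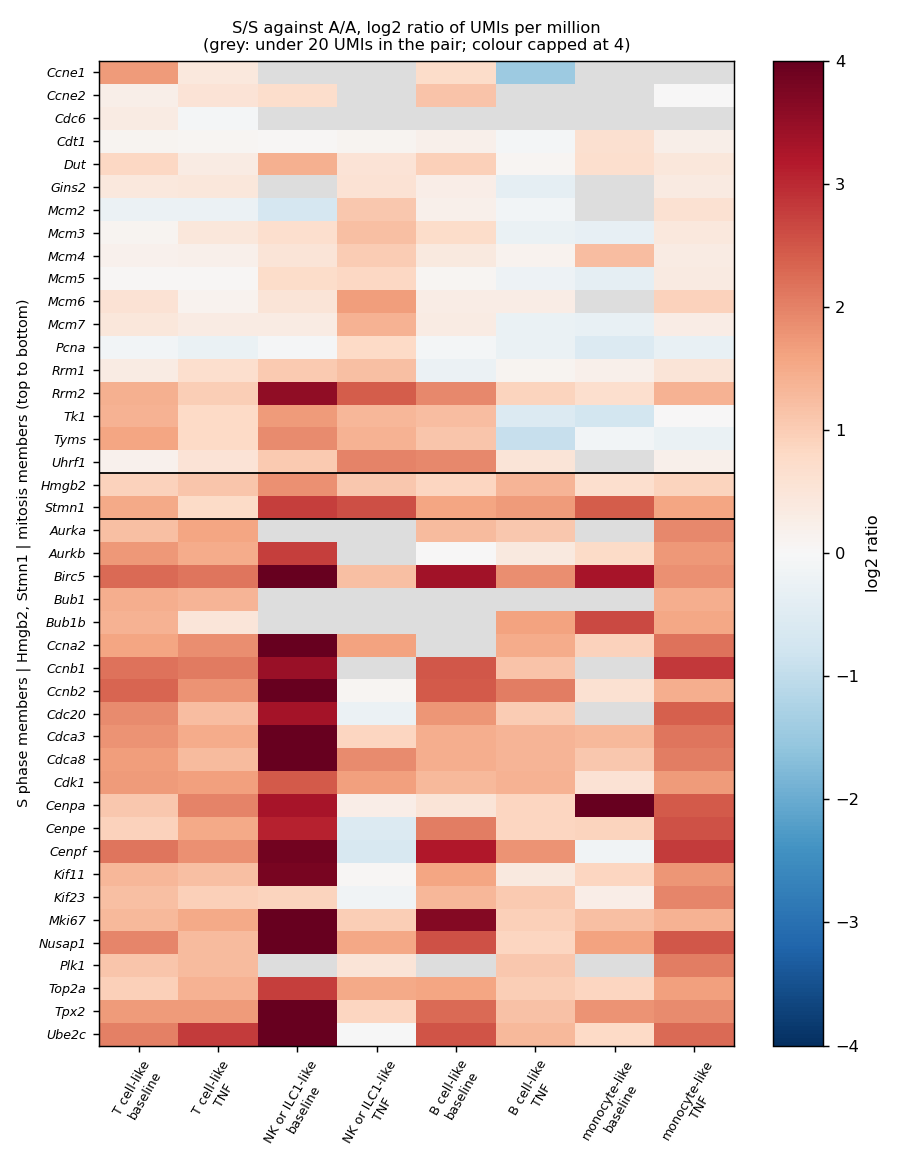
Log2 ratio of S/S to A/A for each member (rows) in 4 cell type gates at baseline and after TNF (columns); grey marks members under 20 UMIs in the pair. Colour is capped at 4. In T cell-like barcodes at baseline 21 of 23 mitosis members and 4 of 18 S phase members are over 2-fold higher in S/S.

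The genes that accompanied Mki67 and Top2a in T cell-like barcodes were those of chromosome packing and division. In the 112 barcodes with at least 3 UMIs of the pair, against the other T cell-like barcodes, the largest ratios among genes outside the list belonged to the histone genes H3c3, H2ac4, H1f5, H2ac24, H2ac8 and H3c2, to Pclaf (a Pcna-binding protein), and to Hmmr, Esco2 and Aspm, which serve the spindle or sister chromatid cohesion. Pclaf had 535 CPM in these barcodes and 2.56 CPM in the others. All 43 members were higher in these barcodes in each of the 4 libraries, with a median log2 ratio of 5.46 for the mitosis and 2.79 for the S phase members. That split uses Mki67 and Top2a themselves and serves as a description only.

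In the NK or ILC1-like and B cell-like gates the mitosis sum was also higher in S/S at each time. The plasma cell-like gate, with 16, 31, 70 and 30 barcodes, ran the other way, at 1120, 96.7, 103 and 72.4 CPM; in A/A at baseline 2 barcodes with the panel held 96.7% of its mitosis UMIs. NK or ILC1-like barcodes met the panel in 0 of 92, 11 of 201 (5.47%), 3 of 164 (1.83%) and 6 of 101 (5.94%); the count of 0 allows a share of up to 3.26%. Their mitosis sum was 48.4, 774, 506 and 877 CPM. At baseline, 18 of the 19 mitosis members with at least 20 UMIs in the pair were over 2-fold higher in S/S, against 8.74% of all genes, and after TNF 6 of 18, against 2.98%. At baseline A/A held 48 mitosis UMIs in all and S/S 1399, so nearly all of the 19 reached that limit through S/S. The baseline count is thus largely set by the limit and adds no support to the sums. Birc5 had 0 UMIs in A/A at baseline and 103 in S/S, and Rrm2, the small subunit of ribonucleotide reductase, had 1 and 41. The A/A TNF value rests on 3 barcodes, which held 88.3% of its mitosis UMIs.

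B cell-like barcodes met the panel in 1 of 427 (0.23%), 7 of 934 (0.75%), 4 of 226 (1.77%) and 7 of 158 (4.43%), and their mitosis sum was 54.0, 205, 433 and 996 CPM, higher in S/S at each time and higher after TNF in each genotype. Of 19 mitosis members with enough UMIs, 17 were over 2-fold higher in S/S at baseline, against 4.85% of all genes. A/A held 193 mitosis UMIs there and S/S 1126, so many of the 19 had enough UMIs only through S/S. That count is partly set by the UMI limit and adds no support to the sums. After TNF the count was 15 of 22, against 2.09%. Within S/S, all 23 were over 2-fold higher after TNF, against 4.54%. The 7 barcodes with the panel held 92.2% of the mitosis UMIs of S/S after TNF, so the members share few cells and are not replicates. Mki67 rose from 0.56 CPM in A/A at baseline, which is 2 UMIs, to 18.8, 61.4 and 119 CPM in the others. Top2a had 32, 158, 125 and 165 UMIs, beside 2, 103, 140 and 178 of Mki67, and so exceeded Mki67 in both baseline libraries. Cenpf (a kinetochore protein) had 0 UMIs in A/A at baseline and 8.21, 20.2 and 72.3 CPM elsewhere. In A/A after TNF a single barcode held 92.4% of the Ube2c UMIs, so that member's level there is the level of 1 cell.

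Monocyte-like barcodes met the panel in 2 of 74 (2.70%), 9 of 288 (3.12%), 4 of 416 (0.96%) and 25 of 821 (3.05%). The mitosis sum was 118, 285, 72.0 and 325 CPM and the S phase sum 178, 151, 131 and 140 CPM. After TNF, 23 of 23 mitosis members were over 2-fold higher in S/S, against 3.76% of all genes, with log2 ratios from 1.38 to 2.82. At baseline 8 of the 18 with enough UMIs were, against 7.87%. A/A held 119 mitosis UMIs at baseline and S/S 1152, so most of the 18 had enough UMIs only through S/S. The baseline count is therefore no separate support. Ccnb1 (cyclin B1) had 2 UMIs in A/A and 123 in S/S after TNF, and Cenpf 8 and 202. The S phase members gave 1 of 16 over 2-fold higher after TNF. Barcodes with the panel held 87.3% of the mitosis UMIs of S/S after TNF and 24.3% of its S phase UMIs. The first share is raised by the panel's own definition.

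**Figure D3:**
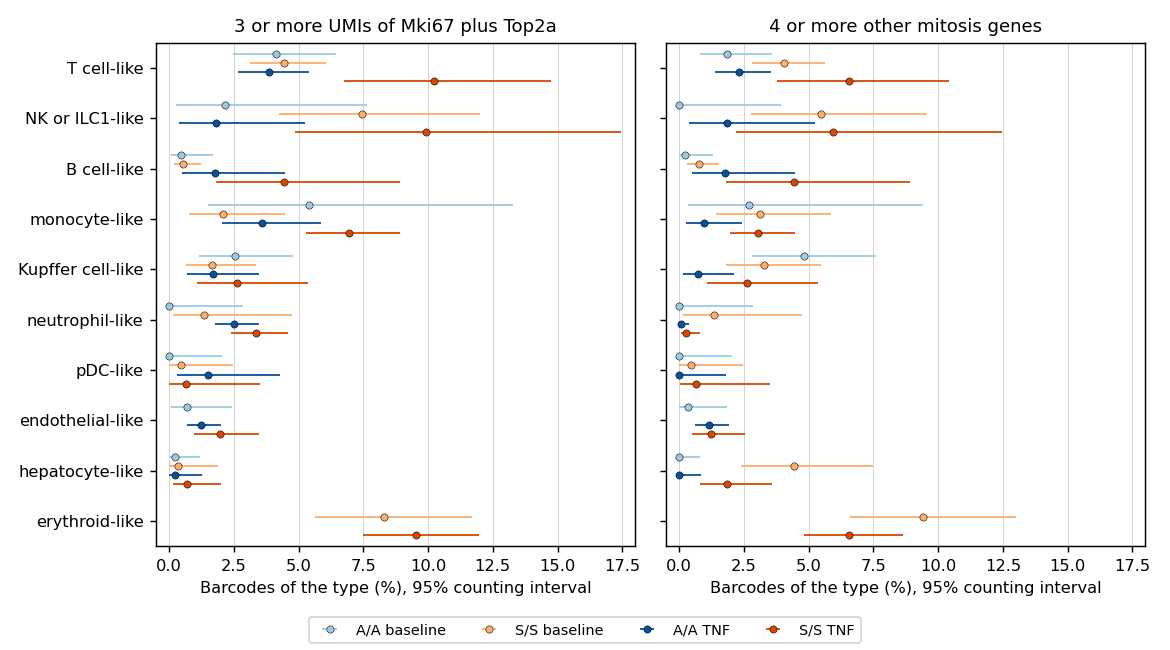
Share of barcodes in each cell type gate (at least 50 barcodes) with at least 3 UMIs of Mki67 plus Top2a (left) and with at least 4 of the 21 other mitosis members (right), with 95% counting intervals. Neutrophil-like barcodes after TNF lie at 2.51 and 3.36% on the left and at 0.07 and 0.27% on the right; hepatocyte-like barcodes of S/S show the reverse.

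Mature neutrophils no longer divide. Neutrophil-like barcodes with Mki67 after TNF mostly lacked Top2a and the panel genes. Hmgb2, a chromatin protein, was widespread in the gate, at 883, 1129, 578 and 621 CPM. At least 3 UMIs of Mki67 plus Top2a were present in 0 of 127, 2 of 150 (1.33%), 36 of 1433 (2.51%, 1.77 to 3.46) and 37 of 1100 (3.36%, 2.38 to 4.61). The count of 0 allows a share of up to 2.36%. The panel was met by only 0, 2, 1 and 3 of them. Mki67 had 4, 18, 281 and 368 UMIs and Top2a 0, 12, 16 and 37, so that after TNF Mki67 exceeded Top2a by factors of 17.6 and 9.95. At least 3 UMIs of Mki67 alone were found in 34 and 37 barcodes after TNF; of these, 32 and 36 had no Top2a and 28 and 33 had none of the 21 panel genes. Their depth was close to that of the rest, with a median of 5985 and 4832 UMIs beside 5540 and 5286 in the other neutrophil-like barcodes.

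Granule transcripts mark the younger stages of neutrophils. Barcodes with at least 10 UMIs of Camp, Ngp and Ltf together (a limit set after the values were seen) had Mki67 in 7 of 141 (4.96%, 2.02 to 9.96) and 10 of 91 (10.99%, 5.40 to 19.3) after TNF. The others had it in 113 of 1292 (8.75%, 7.26 to 10.4) and 117 of 1009 (11.6%, 9.68 to 13.7). By UMIs, the granule-high barcodes held 16 of 281 and 78 of 368, with 49 of the 78 in 1 barcode, and in S/S at baseline 6 such barcodes held 13 of 18. Hepatocyte-like barcodes, with medians of 1457 and 1082 UMIs against 5557 and 5272 in the neutrophil-like gate, had a Mki67 UMI in 1 of 441 and 8 of 435 after TNF. The part of free RNA in the neutrophil-like values was not tested.

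The same imbalance appeared in most other gates. Among barcodes with none of the 21 panel genes, Mki67 made up 98.7 and 98.9% of the Mki67 plus Top2a UMIs in neutrophil-like barcodes after TNF, 83.7 and 85.0% in monocyte-like, 91.2 and 97.3% in Kupffer cell-like and 91.7 and 95.5% in mature DC-like barcodes (33 and 38 barcodes). In erythroid-like barcodes of S/S after TNF it was 95.4%. In T cell-like barcodes it was 39.4 and 40.0%, in NK or ILC1-like 36.4 and 66.7% and in B cell-like 33.3 and 80.0%, these NK and B values from 12 or fewer UMIs each. The T cell-like intervals after TNF were 29.4 to 49.98% for A/A and 24.9 to 56.7% for S/S, and the latter includes an even split. At baseline the T cell-like share was 37.8 and 52.5%. An excess of Mki67 was not particular to myeloid gates. After TNF it made up 81.1 and 72.1% in endothelial-like, 90.9 and 77.8% in plasma cell-like and 92.3 and 100% in pDC-like barcodes, the last from 13 and 4 UMIs. At baseline the value was 78.6 and 55.6% in monocyte-like and 63.6 and 33.3% in Kupffer cell-like barcodes, from 18 or fewer UMIs each. In monocyte-like barcodes of S/S after TNF, 22 of the 57 with at least 3 UMIs of the pair had no panel gene. A share built on Mki67 and Top2a therefore did not measure the same barcodes as the panel in these types.

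**Figure D4:**
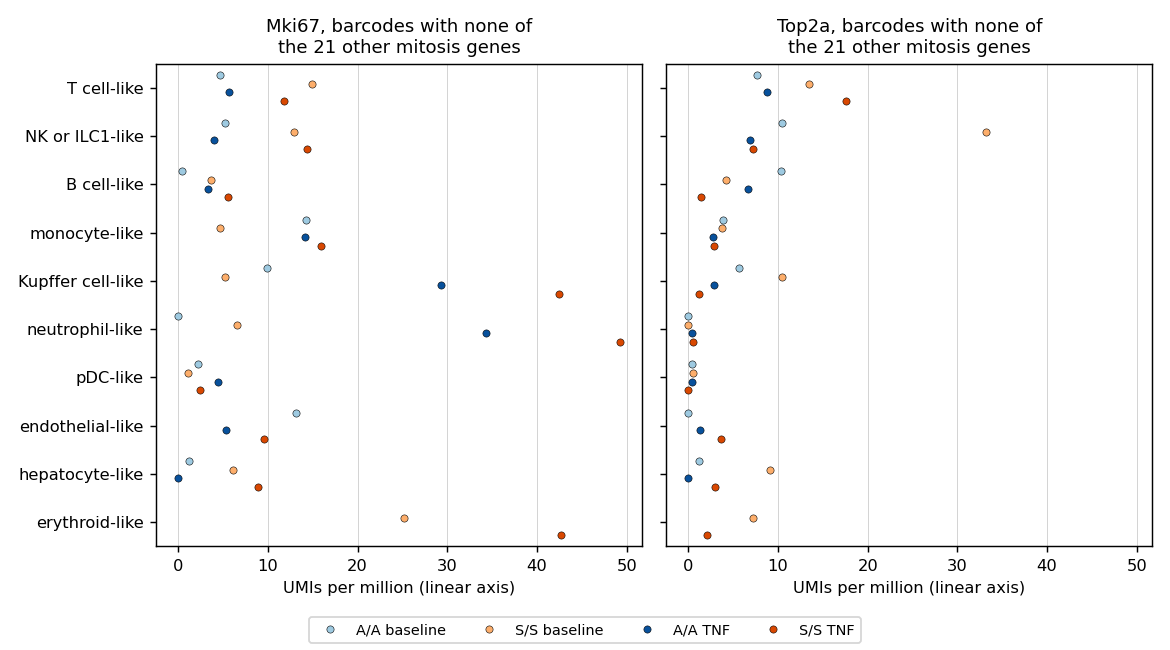
CPM (linear axis) of Mki67 and Top2a in barcodes with none of the 21 other mitosis members, by cell type gate and library (at least 30 barcodes). Mki67 reaches 34.3 and 49.3 CPM in neutrophil-like barcodes after TNF, where Top2a stays at 0.44 and 0.56 CPM.

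Kif23 (ENSMUSG00000032254.11), the kinesin of the central spindle that is needed to split daughter cells, showed the opposite pattern in neutrophil-like barcodes. It had 327, 154, 21.9 and 15.3 CPM, of a summed 374, 340, 74.6 and 139 CPM for all 23 mitosis members, so that most of the mitosis sum of A/A at baseline was this 1 gene. UMIs of Kif23 were found in 91 of 127 (71.7%), 57 of 150 (38.0%), 128 of 1433 (8.93%) and 63 of 1100 barcodes (5.73%), and in 74, 54, 119 and 57 of these no other panel gene was present. The log2 ratio of TNF to baseline was -3.84 (-4.19 to -3.60) for A/A, and for S/S it was -3.25 (-3.75 to -2.91). In T cell-like barcodes Kif23 had 4.29, 11.1, 10.8 and 21.9 CPM and was higher after TNF, and in hepatocyte-like barcodes it had 3 UMIs in A/A and 0 in S/S at baseline. Whether introns were counted by either software version is not stated, and the version cannot be told apart from TNF here.

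**Figure D5:**
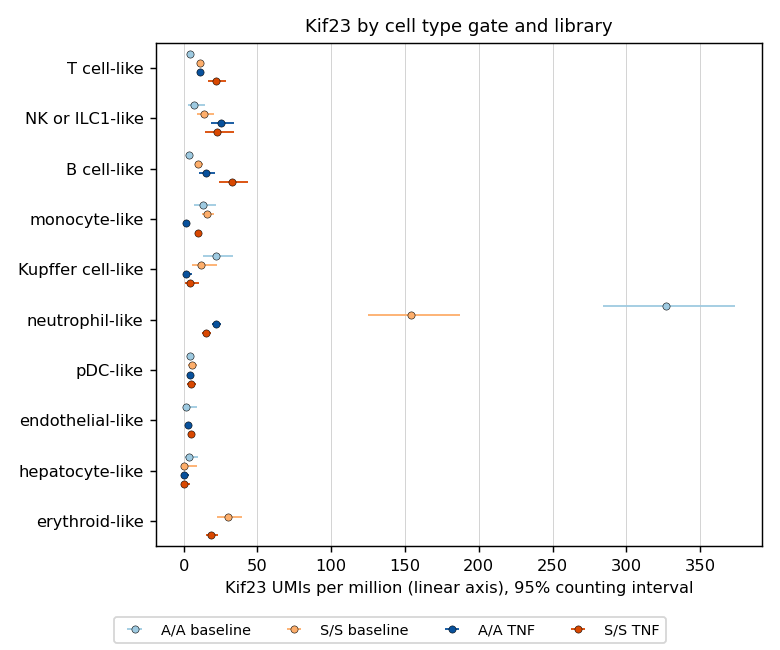
Kif23 CPM (linear axis) with 95% counting intervals in each cell type gate with at least 50 barcodes, by library. Neutrophil-like barcodes at baseline, at 327 and 154 CPM, stand apart from all other gates drawn.

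Hepatocyte-like barcodes met the panel in both S/S libraries and in neither A/A library. The counts were 0 of 462, 13 of 292 (4.45%, 2.39 to 7.49), 0 of 441 and 8 of 435 (1.84%, 0.80 to 3.59), and the counts of 0 allow shares of up to 0.649 and 0.680%. The mitosis sum was 32.4, 551, 15.9 and 265 CPM, and the S phase sum 91.8, 278, 92.5 and 163 CPM. Ube2c had 1, 51, 3 and 54 UMIs, Birc5 2, 31, 2 and 21, and Stmn1 (stathmin, which destabilizes microtubules) 4, 61, 10 and 52. Cdc20, the activator of the anaphase-promoting complex, had 0, 13, 0 and 5. Mki67 had only 4, 2, 1 and 15 UMIs and Top2a 2, 9, 3 and 7. None of the 13 barcodes at baseline had Mki67, and 11 had neither Mki67 nor Top2a, so the pair counted just 1, 1, 1 and 3 hepatocyte-like barcodes. After TNF, 6 of 8 lacked Mki67.

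The 13 and 8 barcodes carried between 4 and 13 and between 4 and 11 panel genes, from a median of 2636 and 2440.5 UMIs beside 1095 and 1076 in the other hepatocyte-like barcodes. Albumin transcripts (Alb) were present in all 13 (2 to 51 UMIs) and all 8 (1 to 120), and Ptprc (CD45, carried by all leukocytes) had 0 UMIs in both sets. In the hepatocyte-like barcodes without the panel Ptprc stood at 86.3 and 52.2 CPM, in 28 of 279 and 17 of 427 barcodes. A count of 0 allows up to 3 UMIs, so such a level in the 13 and 8 barcodes cannot be told from none. Of the other leukocyte markers looked at, the macrophage and neutrophil gene Lyz2 had 10 UMIs in 7 of the 13 and 3 UMIs in 2 of the 8, Cd3e 1 and 0 UMIs, and C1qa 1 and 0. Lyz2 was also present in 72 of 279 and 115 of 427 hepatocyte-like barcodes without the panel. Hba-a1 (alpha globin) stood at 1218 and 1008 CPM, beside 1508 and 1066 CPM in the hepatocyte-like barcodes without the panel. The first 2 values rest on 39 UMIs in 8 of the 13 barcodes, with 17 in 1 of them, and on 24 UMIs in all 8. The A/A hepatocyte-like barcodes were no shallower, with medians of 1506 and 1457 UMIs, than those of S/S, with 1120 and 1082. After thinning to 2000 UMIs, at least 2 mitosis members were seen in 1 of 150, 10 of 53, 1 of 162 and 6 of 95. The preparation enriched non-parenchymal cells, and the barcodes of this gate were shallow. Alb and the other markers can also reach droplets as free RNA, and its part in the gate was not tested.

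The erythroid-like gate of S/S had the highest mitosis sum of the gates with at least 50 barcodes. Most of its barcodes had few genes, with medians of 422 and 403.5 in those without the panel against 1674 and 2209.5 in those with it. Erythroid-like barcodes numbered 15, 350, 48 and 702, and the panel was met by 1, 33 (9.43%, 6.58 to 12.99), 9 (18.8%, 8.95 to 32.6) and 46 (6.55%, 4.84 to 8.64). The A/A numbers are too small for member ratios. In S/S the mitosis sum was 2518 and 1960 CPM and the S phase sum 1087 and 721 CPM at baseline and after TNF. Barcodes with the panel held 94.2 and 93.1% of the S phase UMIs here, against 41.0 and 53.1% in T cell-like barcodes of the same libraries. Cell cycle transcripts of both kinds thus came mostly from the erythroid-like barcodes with the panel. These carried Klf1, a transcription factor of red cell precursors, in 20 of 33 and 37 of 46 barcodes, the remaining erythroid-like barcodes in 8 of 317 and 10 of 656. Mki67 exceeded Top2a by factors of 1.94 and 3.57. After TNF, 2 of 18 S phase and 3 of 23 mitosis members were over 2-fold lower in S/S, against 28.9% of all genes compared, and the log2 ratio of Dut (which clears dUTP) was -1.76 (-2.08 to -1.50). Among genes outside the list, histone genes H2ac24, H3c3, H2ac8, H1f1 and H1f5 and the mitotic genes Knl1, Prc1, Hmmr and Smc2, with Ccdc34, led the 108 barcodes with at least 3 UMIs of Mki67 plus Top2a.

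Erythroid RNA was also found in the other gates of S/S: Hba-a1 stood at 27.5, 410, 14.4 and 446 CPM in T cell-like and at 20.1, 1485, 72.0 and 1065 CPM in hepatocyte-like barcodes, and so moved with genotype. The ratio of mitosis to Hba-a1 UMIs in erythroid-like barcodes gives the mitosis UMIs that would come with that globin. In T cell-like barcodes of S/S this was 4.26 and 3.01 CPM, of 544 and 1172 measured, with the ratio of all erythroid-like barcodes, and 37.3 and 37.8 CPM with the ratio of those with the panel. In hepatocyte-like barcodes it was 15.4 and 7.18 CPM, of 551 and 265 measured, and 135 and 90.1 CPM with the ratio of those with the panel. In pDC-like barcodes (plasmacytoid dendritic cells) the second ratio gave 61.4 and 78.3 CPM, above the 36.2 and 35.7 measured. These values assume that free erythroid RNA has the same ratio as erythroid-like barcodes, and the part of such RNA in the mitosis sums was not tested.

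In Kupffer cell-like barcodes, the resident macrophages of the liver, members were lower after TNF, S phase members included. The S phase sum was 540, 515, 175 and 178 CPM, and the mitosis sum 352, 359, 105 and 203 CPM. Of the 10 S phase members with at least 20 UMIs in the pair, 8 were over 2-fold lower in A/A, against 13.3% of all genes, and of 6 mitosis members, 4. In S/S these counts were 8 of 11 and 5 of 8, against 13.9%. Mcm7 fell from 34 UMIs to 4 in A/A and from 26 to 1 in S/S, and Mcm5 from 37 to 5 in A/A. These members reached the limit of 20 UMIs through their baseline UMIs alone. In a gate this shallow the limit favours members that were high at baseline, so the counts add no support to the sums. Mki67 did not follow: it had 32.7, 16.01, 31.9 and 47.9 CPM, while Top2a had 69.8, 49.4, 17.53 and 26.96 CPM. The panel was met by 17 of 353 (4.82%), 14 of 425 (3.29%), 3 of 412 (0.73%) and 7 of 266 (2.63%); the ratio of TNF to baseline was 0.15 (0.03 to 0.52) for A/A, and for S/S it was 0.80 (0.27 to 2.12). These barcodes were shallow, with medians of 2154, 1411, 2259 and 1908 UMIs, so that most members had too few UMIs for a ratio.

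At the other end, pDC-like barcodes were deep, with medians between 11832 and 18867 UMIs, and met the panel in 0 of 179, 1 of 224, 0 of 202 and 1 of 157. The counts of 0 allow shares of up to 1.68 and 1.49%. They had 17.7, 36.2, 28.7 and 35.7 CPM of mitosis members but 128, 156, 159 and 203 CPM of S phase members. The S phase share was 87.8, 81.2, 84.7 and 85.0%, above that of the T cell-like barcodes of the same libraries. Pcna, at 51.9, 40.1, 55.2 and 50.6 CPM, was present in 94, 76, 117 and 81 barcodes, whereas Mki67 was at 1.71, 1.54, 8.57 and 3.92 CPM. S phase members thus had a level in cells that met the panel in at most 1 barcode per library. Endothelial-like barcodes after TNF met the panel in 14 of 1223 (1.14%) and 7 of 562 (1.25%).

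Of the regulators of the cycle, which are not members, 7 of 48 compared in T cell-like barcodes were over 2-fold higher in S/S at baseline, against 6.85% of all genes, and 7 of 47 after TNF, against 3.4%. None was over 2-fold lower (0 and 0), against 2.28 and 2.55% of all genes. Cdkn2a, which encodes inhibitors of the cycle, had 17.6 CPM in S/S and 1.25 in A/A at baseline, and 14.1 and 3.70 after TNF. Cdkn2c, an inhibitor of Cdk4 and Cdk6, had 47.1 and 10.7 CPM at baseline and 31.6 and 12.1 after TNF, and its target Cdk6 231.5 and 75.7, then 117 and 55.2. Of the other inhibitors with enough UMIs, the ratios at baseline and after TNF were 1.26 and 0.89 for Cdkn2d, 0.41 and 0.36 for Cdkn1b, and -0.11 and 1.59 for Cdkn1a. After TNF against baseline, 6 of 47 regulators were over 2-fold lower in A/A, against 16.6% of all genes, and 5 of 49 in S/S, against 19.8%. Lin52, Rb1, Ccnd3 and E2f3 had log2 ratios of -3.00, -2.15, -1.96 and -1.45 in A/A and -2.32, -2.05, -1.74 and -1.47 in S/S. Ccnd3 (cyclin D3) and Rb1 (the retinoblastoma protein) were also lower after TNF in neutrophil-like barcodes, at -3.43 and -2.69 in A/A and -3.66 and -2.99 in S/S. The software version changed with TNF in all of these comparisons and cannot be told apart from it.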

How the data were processed

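Single-cell RNA was measured with 10x 3' v3.1 chemistry in 4 libraries, 1 per group, each from the livers of 2 pooled mice. The authors made the deposited UMI count matrices with Cell Ranger, 6.1.2 for TNF and 7.1.0 for baseline per the file headers, against mm39 per the submitters' processing notes; whether introns were counted is not given in the sources used here. In the TNF matrices every barcode had 250 genes or more and a mitochondrial share no higher than 20%, which was not so at baseline.

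Barcodes were kept from 300 detected genes upward where mitochondrial UMIs made up no more than 20%. For the type gate, each marker's log count per 10000 (over at least 1000 UMIs) was divided by its mean in the top 1% of barcodes and limited to 1. A type's score was the mean of its 4 highest markers, with at least 3 markers needed and a score of at least 0.35. A barcode whose second score exceeded 0.8 of the best was left out as mixed (195, 396, 582 and 571 barcodes); no doublet caller was run. UMIs were summed per type and library and scaled to the type's total. Log2 ratios of CPM used a pseudocount of 1 CPM and are given where both libraries together held 20 UMIs or more of the gene (50 for named regulators) and types with at least 50 barcodes in both libraries. A gene counted as higher or lower past 2-fold. Intervals are Clopper-Pearson for shares and conditional on the summed count for ratios (taken without the pseudocount), at 95%; a count of 0 allows up to 3 counts. UMIs of 1 droplet and 1 pool are not independent samples. Barcodes were thinned without replacement to 2000 UMIs, leaving out shallower ones.

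Named were Mki67 and Top2a, up to 4 members per role group with the largest ratio, the 3 with the most UMIs, up to 6 regulators and the 10 leading genes beside Mki67 and Top2a. Pcna, Mcm2, Mcm6, Cdk1, Rrm1, Cdc20, Lyz2, Stmn1, Kif23 and further CDK inhibitors were added after their values were seen, as were the mitosis panel and the granule limit. The members, lists and gates were chosen with earlier results of these data known. The steps were tested on simulated counts for T cell-like barcodes at baseline, where 200 of 200 genes changed 4-fold were recovered past 2-fold among 55414 genes run and 6 of 12232 unchanged genes compared also passed 2-fold. The changed genes were picked among well-counted genes only. Counts were drawn per gene and type, without the crowding of UMIs into few barcodes that the members show. The simulation therefore checks the arithmetic and gives no error rate for the members. The scripts ran in Python 3.11.15 with pandas 2.3.3, numpy 2.4.6, matplotlib 3.10.9 and scipy 1.17.1.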

Additional observations from a re-analysis of the deposited data

Results flagged for a closer look

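The summed mitosis members moved in opposite directions after TNF in monocyte-like barcodes of the 2 genotypes. The log2 ratio was -0.71 for A/A, with sums of 118 and then 72.0 CPM, and 0.19 for S/S, with sums of 285 and then 325 CPM. Over all kept barcodes the same sums gave 0.09 for A/A, while S/S gave -0.09. With 1 library per group, neither difference was tested. The monocyte-like sum of A/A at baseline rests on 119 UMIs from 74 barcodes. Of these UMIs, 62.2% sat in 2 barcodes with the panel. By the panel share of monocyte-like barcodes, the TNF to baseline factor was 0.36 (0.05 to 3.93) for A/A. For S/S it was 0.97 (0.44 to 2.37), so both intervals include 1. The share with at least 3 UMIs of Mki67 plus Top2a gave factors of 0.67 (0.21 to 2.76) and 3.33 (1.44 to 9.46). Among the S/S baseline barcodes that the filter left out, 5 had at least 3 UMIs of Mki67 plus Top2a and 4 met the mitosis panel, while both counts were 0 for A/A at baseline.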

How the results depend on the processing

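No paired analysis was possible because each group has 1 library and its number only names it. In T cell-like barcodes at baseline, the log2 ratio of S/S to A/A shares with at least 3 UMIs of Mki67 plus Top2a was 0.10; it was 1.003 with at least 5 UMIs and 1.14 with the panel. With the panel it went from 0.42 to 1.97 in neutrophil-like barcodes after TNF, where S/S had 3 of 1100 and A/A 1 of 1433 barcodes. As a factor, that value was 3.91 (0.31 to 205), an interval that includes 1. The TNF ratio in erythroid-like barcodes of S/S went from 0.20 to -0.52 with the panel. Members over 2-fold higher after TNF in A/A T cell-like barcodes numbered 16, but 5 with a pseudocount of 5, 6 as a mean over barcodes and 0 without panel barcodes. In S/S they numbered 11, but 18 with ribosomal and mitochondrial RNA left out of the total, 18 centred on the median gene, 6 as a mean over barcodes and 0 without panel barcodes. Leaving out panel barcodes removes members' UMIs by construction; between genotypes it took the counts from 26 to 5 at baseline and from 22 to 3 after TNF. The S phase share of T cell-like barcodes was 41.5, 28.6, 33.96 and 19.8% with Hmgb2 and Stmn1 among the mitosis genes, and 58.7, 39.9, 47.4 and 32.7% within barcodes with at least 3 UMIs of the pair, leaving out the pair itself. The log2 ratio of the summed list in whole libraries, S/S to A/A, was 1.05 at baseline, 0.98 without Hmgb2 and Stmn1 and 0.92 without the erythroid gate; after TNF it was 0.62, and 0.76, 0.40 and, with all deposited barcodes, 0.60. The TNF ratio of Top2a in A/A T cell-like barcodes, 0.48, became -0.092 as a mean over barcodes and -0.21 without panel barcodes. The other causes were not tested. Of 56 other-setting values for Mki67 and Top2a, 40 stayed within their counting intervals, 14 moved and 2 reversed. Median depth was at most 2259 UMIs in the Kupffer cell-like and hepatocyte-like gates, where many members had too few UMIs for a ratio.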
